A study of Mus musculus with 12 samples.

Results

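The comparison asks what AGN192403 alone did to the transcripts of cultured CD8 T cells that were not restimulated. AGN192403 is an imidazoline receptor ligand that the study used as a small molecule against TMED proteins. The comparison used 4 of the 12 libraries of the series, chosen by their labels, with 2 libraries of resting control cells given vehicle and 2 of resting control cells given AGN192403. All 12 libraries came from OT-I/Cas9 CD8 T cells, taken from the spleens of mice that carry the OT-I T cell receptor transgene and express Cas9 throughout the body. Both groups compared here carried the control guide Ctrl-2, delivered by retrovirus and kept under puromycin, and both were grown with IL-2, IL-7 and IL-15. The vehicle group received water and the other group 100 µM AGN192403, each for 24 h and without antibody to CD3, at this 1 dose and 1 time. The cells had been stimulated through CD3 and CD28 before transduction, so resting means without a new stimulus. The other groups were Tmed10 knockout cells given vehicle at rest, and the same 3 conditions on 2.5 µg/mL antibody to CD3 for 24 h. Nothing in the labels ties a replicate to a culture or a mouse, so p-values measure the spread between libraries, which may be technical. In these bulk samples, fewer cells of one kind and less RNA per cell cannot be told apart.

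TMED proteins, also called p24 proteins, are cargo receptors that cycle between the endoplasmic reticulum (ER) and the Golgi apparatus. COPII coats carry cargo out of the ER, and COPI coats return receptors and escaped ER residents, the latter by way of the KDEL receptors. When ER or Golgi traffic is disturbed, cells can raise secretory genes through transcription factors such as ATF6, XBP1 and the CREB3 family. Amino acid shortage, ER stress and other stresses can raise ATF4, which drives genes of amino acid import, amino acid synthesis and tRNA charging.

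Of the 46603 genes in the table, 13167 passed the expression filter and were tested. Total counts were 10055726 and 13274398 in the vehicle libraries and 9283133 and 13697762 in the AGN192403 libraries, within the range of all 12 (9089350 to 16481840). Levels are given as read counts scaled to library size (CPM) after TMM scaling, and differences as log2 fold changes, AGN192403 over vehicle, with the standard error (SE) from edgeR's quasi-likelihood fit. A gene is called when its Benjamini-Hochberg adjusted p over all genes tested is below 0.05. The defining markers of T cells were high, with Cd3e at 578 and 589 CPM with vehicle and 527 and 519 CPM with AGN192403 and Cd8a at 634 and 632 CPM with vehicle and 639 and 649 CPM with AGN192403.

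AGN192403 changed 3341 genes (25.4% of those tested), of which 1533 rose (11.6%) and 1808 fell (13.7%). Most changes were small. Only 79 rises and 103 falls reached 2-fold, and 90% of all genes lay between log2 −0.63 and 0.50. Among genes at 10 CPM or more in either group, the rises of highest fold included genes of the ER and Golgi coats and of amino acid supply, and the falls of highest fold included granzymes, Fos, Fosb and the cytokine gene Il10. The number called depended on the tool and on single libraries, since DESeq2 called 1935 (774 higher and 1161 lower) and the fit without AGN192403 library 2 called 1861. Scaling by library totals gave 1991 higher and 1426 lower, so the balance of rises and falls moved with the scaling. In the 8 lists with at least 5 rises and 0 falls by edgeR, and the 8 with at least 5 falls and 0 rises, an unadjusted p below 0.05 gave at most 2 members in the missing direction and DESeq2 gave 0.

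**Figure D1:**
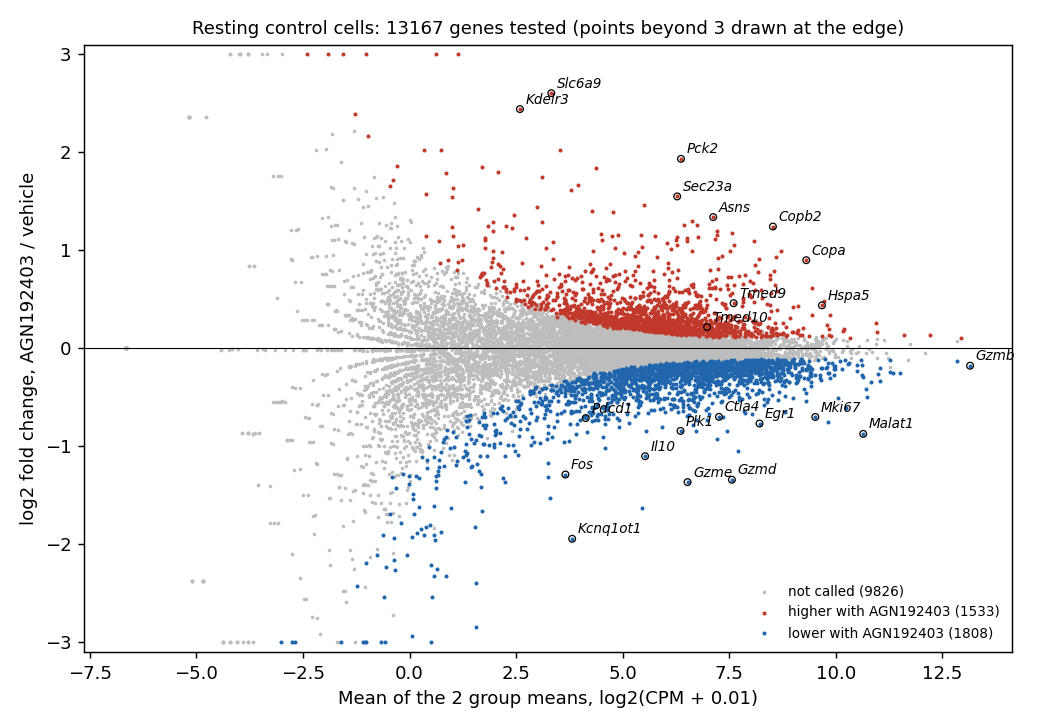
Each point is 1 of 13167 genes, with its mean level in resting cells on the x axis (log2 CPM) and the log2 fold change of AGN192403 over vehicle on the y axis. Red points (1533) were higher, blue points (1808) lower and grey points not called, with circled genes named in the text.

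The TMED genes themselves rose with the compound. Of 9 members tested, 6 rose and 0 fell. The median was 0.22 on the log2 scale, beside −0.01 over all genes. Tmed10 (ENSMUSG00000021248, GRCm38 chr12:85340614-85374847) was at 116 and 117 CPM with vehicle and 133 and 138 CPM with AGN192403 (log2 fold change 0.22 ± 0.0476 SE, adjusted p = 0.00123). The transcript of the protein that the compound is used to lower was therefore slightly higher, with no overlap between the groups, as in 60.8% of all genes tested. Tmed2 was at 30.1 and 32.1 CPM with vehicle and 41.6 and 43.3 CPM with AGN192403 (0.45 ± 0.0719 SE, adjusted p = 3.6e-05), and Tmed9 was at 162 and 165 CPM with vehicle and 228 and 222 CPM with AGN192403 (0.46 ± 0.0495 SE, adjusted p = 1.01e-07). Tmed3 changed most in the family, from 44.7 and 47.6 CPM to 78 and 78.9 CPM (0.76 ± 0.0620 SE, adjusted p = 8.85e-10). The rises of Tmed7 (0.23) and Tmed5 (0.13) were smaller, and neither passed without AGN192403 library 2 (adjusted p = 0.0633 and 0.221). Tmed5 was also lost without vehicle library 1 (0.188) and without AGN192403 library 1 (0.0635).

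The COPII coat rose almost as a whole. Of 16 tested members, 13 rose and 0 fell (median 0.42). Sec23a (ENSMUSG00000020986, GRCm38 chr12:58958383-59012017), a subunit of the inner coat, was at 39.2 and 39.7 CPM with vehicle and 115 and 116 CPM with AGN192403, a 2.93-fold difference (log2 1.55 ± 0.0559 SE, adjusted p = 3.25e-16). Its partner Sec24d, which binds cargo, was at 48.8 and 47.4 CPM with vehicle and 106 and 101 CPM with AGN192403 (1.11 ± 0.0619 SE, adjusted p = 7.54e-13). The outer coat is built from Sec13 and Sec31a. Sec13 went from 91.2 and 93.2 CPM to 206 and 206 CPM (1.16 ± 0.0495 SE, adjusted p = 4.4e-15) and Sec31a from 175 and 172 CPM to 377 and 365 CPM (1.10 ± 0.0414 SE, adjusted p = 6.68e-16). Sar1a, the GTPase that starts coat assembly, rose by 0.72 ± 0.0513 SE on the log2 scale.

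The COPI coat rose by more. Of 17 members, 14 rose and 0 fell, with a median of 0.79. Copb2 (ENSMUSG00000032458, GRCm38 chr9:98563721-98588382), encoding β′-COP, was at 216 and 221 CPM with vehicle and 509 and 526 CPM with AGN192403 (1.24 ± 0.0425 SE, adjusted p = 1.82e-16). Copa, which encodes α-COP, was at 442 and 441 CPM with vehicle and 823 and 824 CPM with AGN192403 (0.90 ± 0.0376 SE, adjusted p = 3.29e-15). In both genes the lowest library with AGN192403 lay far above the highest with vehicle. Copb1 (0.92 ± 0.0400 SE) and Copg1 (0.85 ± 0.0421 SE) rose alike. Among the regulators of the coat, the small GTPase Arf4 rose by 1.12 ± 0.0541 SE, Gbf1, which loads Arf proteins with GTP at the early Golgi, by 1.06 ± 0.0440 SE, and Arfgap1, which ends their cycle, by 0.87 ± 0.0586 SE. Copz2 was near the limit of detection with vehicle (0.500 and 0.757 CPM with vehicle and 2.96 and 2.43 CPM with AGN192403) and rose by 2.02 ± 0.358 SE, adjusted p = 0.000128.

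Receptors and fusion factors of the same route followed. Of 21 KDEL receptors, cargo receptors and SNAREs, 14 rose and 1, Bcap31 (−0.22), fell. Kdelr3 (ENSMUSG00000010830, GRCm38 chr15:79516411-79527739), a receptor that retrieves ER residents, was at 2.1 and 1.66 CPM with vehicle and 10.3 and 10.01 CPM with AGN192403 (2.44 ± 0.196 SE, adjusted p = 6.73e-10), which at 5.43-fold was the next highest fold after Slc6a9, described below, once genes under 10 CPM in both groups were set aside. Kdelr2, a second receptor of that kind, was at 65 and 70.1 CPM with vehicle and 150.1 and 149 CPM with AGN192403 (1.14 ± 0.0538 SE, adjusted p = 3.18e-14). The SNAREs Sec22b (1.13 ± 0.0572 SE), Bet1 (1.02 ± 0.0895 SE) and Gosr2 (0.81 ± 0.0439 SE) rose as well, as did the cargo receptors Lman1 (0.44 ± 0.0496 SE) and Surf4 (0.44 ± 0.0440 SE).

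**Figure D2:**
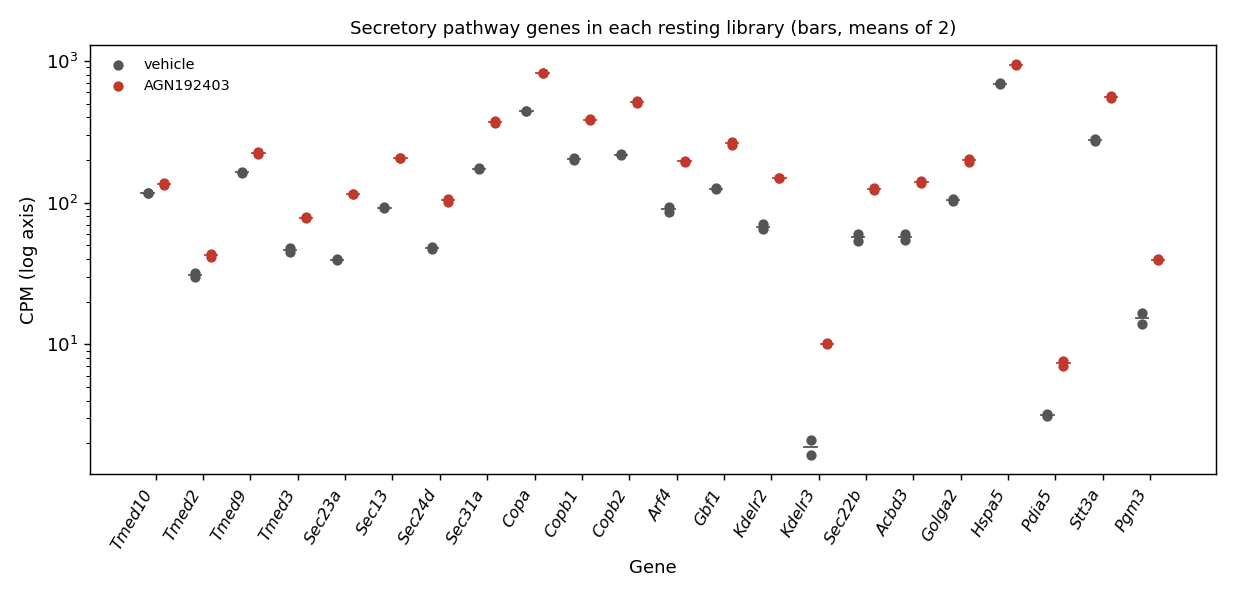
CPM on a log axis of 22 secretory pathway genes in the 2 vehicle libraries (grey) and the 2 AGN192403 libraries (red), with a bar at each mean. Every gene shown was higher in both AGN192403 libraries, from Tmed10 (log2 0.22) to Kdelr3 (2.44).

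Lists for other parts of the secretory route were added after values had been seen, and they describe how far the pattern reached. Golgins and Golgi stacking genes rose in 14 of 22 and fell in 2 (median 0.29). Acbd3, a Golgi scaffold, was at 60.1 and 54.3 CPM with vehicle and 137 and 142 CPM with AGN192403 (1.30 ± 0.0517 SE, adjusted p = 1.52e-15). The stacking factor Gorasp1 (1.11 ± 0.221 SE) and the golgins Golga5 (1.01 ± 0.0592 SE) and Golga2 (0.93 ± 0.0478 SE) also rose. Of 26 YIP1 family genes and Golgi GTPases, 15 rose and 1 fell, among them Yipf2 (1.15 ± 0.0891 SE), Yipf5 (1.05 ± 0.0575 SE) and Arl1 (1.08 ± 0.0644 SE). At the entry to the pathway, 18 of 28 genes of the translocon, signal recognition particle and signal peptidase rose and 0 fell, with Srpr, the signal recognition particle receptor, at 111 and 110.2 CPM with vehicle and 210.4 and 213 CPM with AGN192403 (0.94 ± 0.0455 SE, adjusted p = 4.93e-14). The tethering complexes COG, TRAPP and GARP changed less, with 9 of 30 higher and 2 lower, and 5 higher without AGN192403 library 2. Enzymes that build the GPI anchor gave 3 rises and 2 falls among 28, close to the share of all genes.

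Folding factors of the ER rose in number but by less than the coats. Of 43 ER chaperone and unfolded protein response genes, 27 rose and 1 fell (median 0.28). Hspa5, the chaperone BiP, was at 688 and 698 CPM with vehicle and 930.2 and 949 CPM with AGN192403 (0.44 ± 0.0353 SE, adjusted p = 6.73e-10). Hyou1 (0.50 ± 0.0465 SE), Herpud1 (0.49 ± 0.0471 SE) and the disulfide isomerase P4hb (0.48 ± 0.0373 SE) changed by a like amount, while Pdia5, another isomerase, rose by 1.23 ± 0.205 SE. Among transcription factors of ER and Golgi stress, Xbp1 rose by 0.41 ± 0.0442 SE. Creb3, a Golgi-activated factor of the CREB3 family, rose by 1.15 ± 0.0687 SE. Creb3 was the highest of an added list of CREB3 and other Golgi or ER stress factors. That list gave 5 rises (26.3%) and 3 falls (15.8%) of 19, with a median of 0.10. Whether any of these factors acted on the genes above was not tested. The N-glycan genes gave 18 rises and 2 falls of 41. Stt3a, a catalytic subunit of oligosaccharyltransferase, was at 274 and 283 CPM with vehicle and 544 and 565 CPM with AGN192403 (0.99 ± 0.0409 SE, adjusted p = 2.71e-15). Genes of the hexosamine pathway, which makes the sugar donor UDP-GlcNAc, were among those that rose, namely Pgm3 (1.39 ± 0.0917 SE), Gnpnat1 (0.70 ± 0.114 SE) and Gfpt1 (0.65 ± 0.0439 SE). Ggcx, the ER enzyme of vitamin K-dependent carboxylation, was at 10.1 and 8.32 CPM with vehicle and 32.5 and 32.5 CPM with AGN192403 (1.84 ± 0.114 SE, adjusted p = 6.05e-12).

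Promoters of the genes above were read from RefSeq windows on GRCm38.p6 that span 250 bases before to 50 bases after the transcript start, which were matched for 9651 of the 13167 genes tested. They are shown for single genes of the coat, KDEL receptor, chaperone, amino acid and cell cycle groups whose windows held a motif counted here. Exact matches were counted on both strands, and a match describes letters in a window, not a bound site. The letters TGACGTGG, the core of the unfolded protein response element, and ACGTGGC, which can overlap it, were picked after the values had been seen. ACGTGGC was in 2.58% of all 32851 windows, in 4.71% of tested genes with a window, and in 17 of 60 (28.3%) of the genes that rose by log2 1 or more. The same letters were in 8 of 247 (3.24%) genes that fell by log2 0.5 or more. They stood in 7 of 16 COPII promoters and 4 of 16 COPI promoters. TGACGTGG was in 0.676% of all windows and in 10 of the 60 (16.7%). The cyclic AMP response element, in its exact palindromic form, was in 1.79% of all windows and in 0 of the 60. In the 3 windows that follow, given 5′ to 3′ on the strand of the gene, capitals mark ACGTGGC or TGACGTGG on either strand. They belong to Kdelr3 (chr15:79516158-79516457, plus strand), Sec23a (chr12:59011968-59012267, minus strand) and Copb2 (chr9:98563481-98563780, plus strand), whose levels rose by log2 2.44, 1.55 and 1.24.
Kdelr3: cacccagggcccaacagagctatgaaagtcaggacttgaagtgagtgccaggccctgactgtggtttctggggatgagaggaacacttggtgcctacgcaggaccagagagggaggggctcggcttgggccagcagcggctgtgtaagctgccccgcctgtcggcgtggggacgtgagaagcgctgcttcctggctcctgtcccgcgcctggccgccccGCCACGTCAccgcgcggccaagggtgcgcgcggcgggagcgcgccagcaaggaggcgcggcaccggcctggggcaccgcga
Sec23a: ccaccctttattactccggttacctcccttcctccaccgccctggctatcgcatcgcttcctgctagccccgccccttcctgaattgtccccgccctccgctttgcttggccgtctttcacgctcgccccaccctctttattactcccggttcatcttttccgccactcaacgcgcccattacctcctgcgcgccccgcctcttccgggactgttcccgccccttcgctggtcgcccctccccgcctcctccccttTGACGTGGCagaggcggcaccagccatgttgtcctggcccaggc
Copb2: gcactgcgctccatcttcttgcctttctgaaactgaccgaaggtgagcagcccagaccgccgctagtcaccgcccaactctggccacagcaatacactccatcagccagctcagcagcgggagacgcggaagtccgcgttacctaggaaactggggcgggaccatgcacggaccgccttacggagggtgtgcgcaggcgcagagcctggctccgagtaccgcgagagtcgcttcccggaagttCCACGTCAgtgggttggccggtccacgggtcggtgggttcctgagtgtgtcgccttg

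The ER stress response element, CCAAT and CCACG separated by 9 bases, was in 0.119% of all windows. It was found in 10 of 35 ER chaperone promoters, counted whether or not the gene changed, and in 0 of the 60 genes that rose by log2 1 or more. Of all 1222 genes with a window that were called higher, 6 (0.491%) held it, beside 0.176% of tested genes with a window. The window of Hspa5 (chr2:34771840-34772139, plus strand), whose level rose by log2 0.44, is shown with that element in capitals.
Hspa5: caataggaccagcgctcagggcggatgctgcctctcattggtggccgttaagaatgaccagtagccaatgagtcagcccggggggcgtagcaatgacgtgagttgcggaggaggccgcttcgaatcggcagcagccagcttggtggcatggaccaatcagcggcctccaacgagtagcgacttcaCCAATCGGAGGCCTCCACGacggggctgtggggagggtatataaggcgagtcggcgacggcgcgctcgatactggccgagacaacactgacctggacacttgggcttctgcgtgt

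Genes of the ATF4 response had a higher median than any other list but the COPI coat. Of 39 members, 31 rose and 1, Ddit4 (−0.23), fell, with a median of 0.69. Atf4 itself was at 260.3 and 269.8 CPM with vehicle and 428 and 440.0 CPM with AGN192403 (0.71 ± 0.0427 SE, adjusted p = 3.2e-12). Pck2 (ENSMUSG00000040618, GRCm38 chr14:55540266-55551242), the mitochondrial phosphoenolpyruvate carboxykinase, was at 33.3 and 35 CPM with vehicle and 132 and 129.9 CPM with AGN192403, a 3.82-fold difference (log2 1.93 ± 0.0561 SE, adjusted p = 7.82e-18). Asns, asparagine synthetase, was at 76.3 and 81.3 CPM with vehicle and 197 and 202 CPM with AGN192403 (1.34 ± 0.0529 SE, adjusted p = 1.32e-15). In both genes the groups did not overlap, as in 60.8% of all genes tested. The stress effectors Ddit3, encoding CHOP, and Trib3, a pseudokinase that restrains ATF4, rose by 0.86 ± 0.0900 SE and 1.13 ± 0.0604 SE, and Atf5 rose by 1.61 ± 0.122 SE.

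Importers of amino acids, an added list, rose in 12 of 20 and fell in 2. Slc6a9, a glycine transporter, had the highest fold when genes under 10 CPM in both groups were set aside, at 2.7 and 2.95 CPM with vehicle and 16.3 and 18.1 CPM with AGN192403 (2.605 ± 0.145 SE, adjusted p = 7.35e-13). Slc1a4, which carries serine and alanine, was at 9.59 and 11.8 CPM with vehicle and 27.1 and 29.7 CPM with AGN192403 (1.40 ± 0.107 SE, adjusted p = 3.4e-10), and Slc7a5, the light chain of the large neutral amino acid transporter, rose by 0.94 ± 0.0398 SE together with its heavy chain Slc3a2 (0.74 ± 0.0467 SE). Slc7a11, the cystine transporter, was low at 0.400 and 0.530 CPM with vehicle and 2.43 and 1.64 CPM with AGN192403 (2.03 ± 0.390 SE, adjusted p = 0.000332). Of the enzymes of serine, one-carbon and proline synthesis, also an added list, 16 of 28 rose and 1 fell. Both added lists share members with the ATF4 list, among them Slc6a9, Slc1a4, Slc7a11, Pycr1 and Aldh1l2, so the counts are not independent. Pycr1, the last enzyme of proline synthesis, was at 5.0 and 4.31 CPM with vehicle and 17.4 and 19.7 CPM with AGN192403 (2.02 ± 0.150 SE, adjusted p = 1.74e-10). The mitochondrial folate enzymes Shmt2 (0.75 ± 0.0431 SE) and Mthfd2 (0.56 ± 0.0465 SE) rose by less. Aldh1l2, which oxidises mitochondrial formyl-tetrahydrofolate, had 4 counts in both vehicle libraries together and 97 in both AGN192403 libraries (4.51 ± 0.410 SE, adjusted p = 6.54e-09). The charging enzymes followed, with 14 of 20 cytosolic aminoacyl-tRNA synthetases higher and 0 lower (median 0.53), led by Sars (0.78 ± 0.0435 SE), Iars (0.69 ± 0.0437 SE) and Nars (0.67 ± 0.0476 SE).

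The core of the C/EBP-ATF response element, TGATGCAA, was in 0.895% of all windows and 0.787% of tested genes with a window. It was in 5 of the 60 genes that rose by log2 1 or more (8.33%). Of all genes with a window, 22 of 1222 called higher (1.8%) and 9 of 1396 called lower (0.645%) held it. Counted whether or not the gene changed, it was in 8 of 33 ATF4 list promoters, 4 of 13 synthetase promoters and 0 of the 16 COPI promoters. The windows of Pycr1 (chr11:120643699-120643998, minus strand) and Slc1a4 (chr11:20332664-20332963, minus strand) are shown with TGATGCAA, on either strand, in capitals. Both genes rose, by log2 2.02 and 1.40.
Pycr1: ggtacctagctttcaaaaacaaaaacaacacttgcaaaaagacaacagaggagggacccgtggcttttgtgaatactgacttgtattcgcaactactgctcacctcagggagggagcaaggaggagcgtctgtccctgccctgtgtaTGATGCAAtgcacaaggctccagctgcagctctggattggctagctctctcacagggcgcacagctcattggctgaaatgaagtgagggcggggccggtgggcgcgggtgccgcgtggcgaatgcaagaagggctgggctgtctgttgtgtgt
Slc1a4: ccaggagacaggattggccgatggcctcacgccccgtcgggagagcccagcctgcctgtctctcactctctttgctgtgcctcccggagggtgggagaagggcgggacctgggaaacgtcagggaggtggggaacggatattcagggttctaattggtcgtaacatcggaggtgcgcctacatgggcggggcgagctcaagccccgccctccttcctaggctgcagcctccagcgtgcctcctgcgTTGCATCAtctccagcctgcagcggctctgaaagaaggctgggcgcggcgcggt

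Lipid synthesis rose more modestly. Of 26 genes of cholesterol synthesis and uptake, 18 rose and 1 fell (median 0.23). Dhcr7, which makes cholesterol from its last precursor, was at 46.3 and 50.4 CPM with vehicle and 80.5 and 89.5 CPM with AGN192403 (0.82 ± 0.0637 SE, adjusted p = 4.15e-10), and Fdps, farnesyl diphosphate synthase, at 40.6 and 40.02 CPM with vehicle and 63.1 and 67.4 CPM with AGN192403 (0.70 ± 0.0643 SE, adjusted p = 7.41e-09). Fatty acid synthesis gave 8 rises and 0 falls of 12 (median 0.16), with Fasn at 0.34 ± 0.0387 SE, and 5 rises without vehicle library 1 or without AGN192403 library 1. Fatty acid oxidation gave 2 and 1 of 22, below the share of all genes in both directions. Nucleolar ribosome biogenesis rose in 23 of 52 and fell in 2 (median 0.13), with Tsr1 (0.58 ± 0.0523 SE) and Pes1 (0.41 ± 0.0564 SE) among them, and 11 rose without AGN192403 library 2. Several genes of other kinds were also among the highest folds. These were Smyd5, a lysine methyltransferase (23.6 and 24.6 CPM with vehicle and 66.6 and 66.3 CPM with AGN192403, 1.46 ± 0.0719 SE, adjusted p = 6.62e-14), Grpel1, a cofactor of the mitochondrial chaperone HSP70 (1.26 ± 0.0572 SE), and Gpr107, a Golgi membrane protein (1.26 ± 0.0540 SE).

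**Figure D3:**
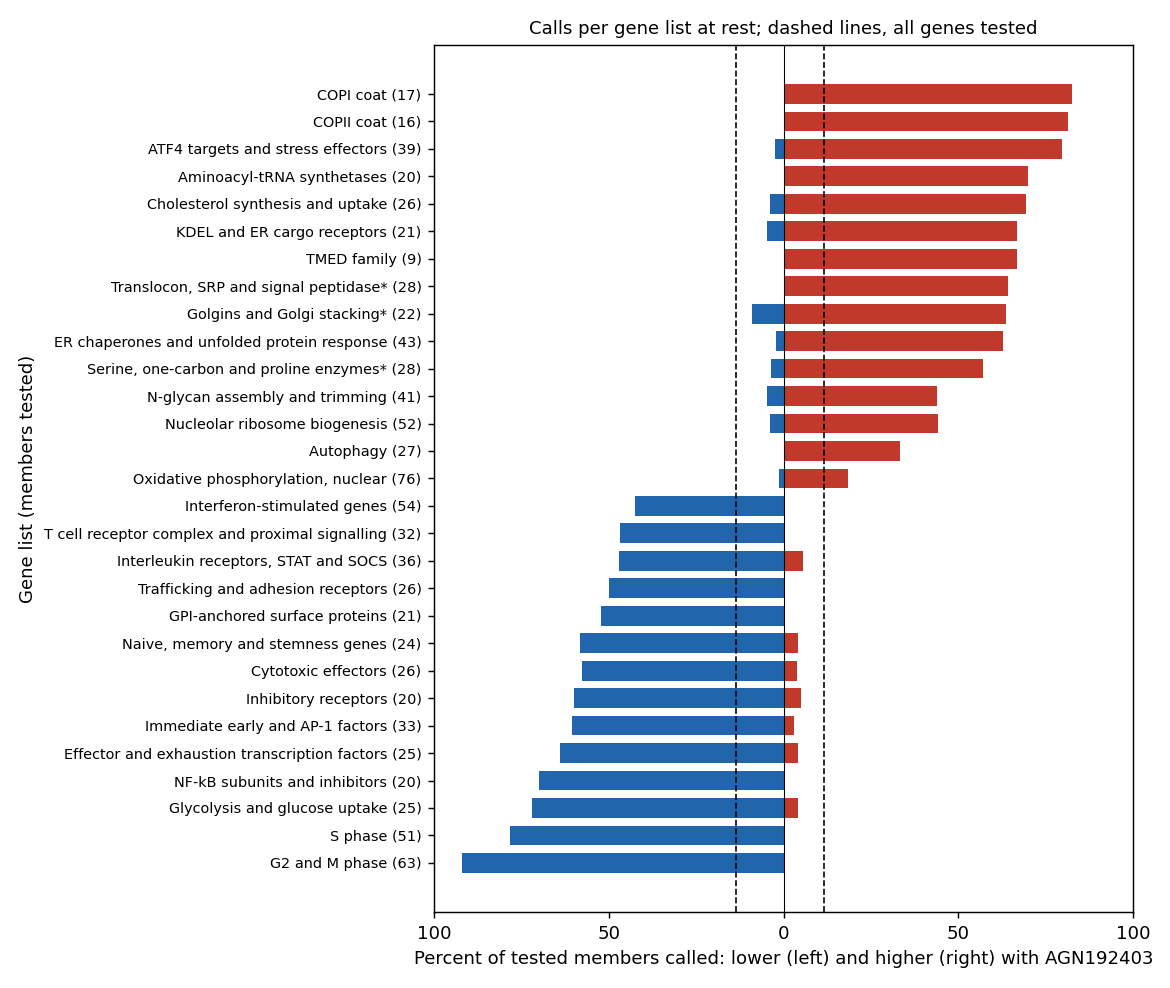
For 29 gene lists, the percent of tested members called higher (red, right) or lower (blue, left) with AGN192403 at rest, with the number tested in parentheses and the shares over all genes tested (11.6% and 13.7%) as dashed lines. Lists marked with an asterisk were added after values had been seen. COPI and COPII coats are at the top and the G2 and M phase genes, with 58 of 63 lower, at the bottom.

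Cytotoxic effector genes fell. Of 26 tested, 15 fell and 1 rose (median −0.19). Gzme was at 130.1 and 134 CPM with vehicle and 54.2 and 49.1 CPM with AGN192403 (−1.36 ± 0.0580 SE, adjusted p = 4.2e-15) and Gzmd at 269.9 and 271 CPM with vehicle and 109 and 105 CPM with AGN192403 (−1.34 ± 0.0469 SE, adjusted p = 2.22e-16). Gzmg (−1.62 ± 0.0721 SE) and Gzmc (−1.04 ± 0.0501 SE) moved with them, but these 4 genes lie in a cluster of near-identical copies and the split of reads among them is uncertain. Prf1, encoding the pore-forming protein perforin, is outside that cluster and was at 286 and 289 CPM with vehicle and 186 and 178 CPM with AGN192403 (−0.66 ± 0.0458 SE, adjusted p = 4.72e-11). Gzmb, encoding granzyme B, was at 9438 and 9819 CPM with vehicle and 8459.8 and 8583 CPM with AGN192403 (−0.18 ± 0.0345 SE, adjusted p = 0.000399), 1.13-fold lower. Gzma fell by 0.41 ± 0.0397 SE on the log2 scale, and Ifng, encoding interferon-γ, was at 8.79 and 7.49 CPM with vehicle and 7.4 and 6.29 CPM with AGN192403 (−0.26 ± 0.129 SE, adjusted p = 0.233).

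Receptors that restrain T cells fell as a group. Of 20 tested, 12 fell and 1 rose (median −0.27). Pdcd1 (ENSMUSG00000026285, GRCm38 chr1:94038305-94052553), which encodes PD-1, was at 21.6 and 21.9 CPM with vehicle and 13.2 and 13.4 CPM with AGN192403 (−0.71 ± 0.113 SE, adjusted p = 3.3e-05). Ctla4 (ENSMUSG00000026011, GRCm38 chr1:60887000-60915832), the receptor that competes with CD28 for ligands, was at 187 and 192 CPM with vehicle and 117 and 117 CPM with AGN192403 (−0.70 ± 0.0483 SE, adjusted p = 4.81e-11). Lag3, which binds MHC class II, was at 130.3 and 134 CPM with vehicle and 76.3 and 82.2 CPM with AGN192403 (−0.73 ± 0.0580 SE, adjusted p = 5.43e-10), and Havcr2, encoding TIM-3, at 123 and 120.5 CPM with vehicle and 96.6 and 95 CPM with AGN192403 (−0.34 ± 0.0475 SE, adjusted p = 4.85e-06). In each of these 4 genes the groups did not overlap, which 60.8% of all genes tested also showed. The study examined 5 tested genes as candidate clients of TMED10, a list that is not independent evidence because the study chose it, and 4 of them fell, the other 2 being Cxcr4 (−0.54 ± 0.0673 SE) and Unc93b1 (−0.24 ± 0.0610 SE). The call on Unc93b1 was lost without vehicle library 2 (adjusted p = 0.0698) and without AGN192403 library 2 (0.126). Tnfrsf9, encoding the activation marker CD137, did not pass, at 936 and 935 CPM with vehicle and 889 and 919 CPM with AGN192403 (−0.05 ± 0.0383 SE, adjusted p = 0.401). Nor did Entpd1, encoding the ectonucleotidase CD39, at 114 and 113 CPM with vehicle and 107 and 104 CPM with AGN192403 (−0.11 ± 0.0482 SE, adjusted p = 0.109).

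Stimulatory receptors and signalling genes fell too, by less. Costimulatory and activation receptors fell in 13 of 23 (8 without AGN192403 library 1), among them Icos (−0.34 ± 0.0454 SE) and Cd27 (−0.32 ± 0.0523 SE). The 1 that rose was Slc3a2, counted above as an amino acid transporter. Genes of the T cell receptor complex and its proximal signalling fell in 15 of 32 and rose in 0 (median −0.14), and interleukin receptor, STAT and SOCS genes in 17 of 36. Jak3, the kinase of the common γ chain, was at 477 and 461 CPM with vehicle and 341 and 309.5 CPM with AGN192403 (−0.53 ± 0.0488 SE, adjusted p = 7.9e-09), and Il18r1 fell by 0.50 ± 0.0450 SE. Il10, an anti-inflammatory cytokine, was at 63.7 and 62.3 CPM with vehicle and 27.3 and 30.9 CPM with AGN192403 (−1.10 ± 0.0674 SE, adjusted p = 4.75e-12). It had the largest fall among the cytokines called. Of 31 cytokines, 5 (16.1%) fell, Il10 included, and 2 (6.45%) rose, beside 13.7% and 11.6% of all genes tested. Of the 31, 7 had 0 counts in a resting group. Trafficking receptors fell in 13 of 26, including Gpr183 (−0.78 ± 0.0958 SE) and Ccr7 (−0.41 ± 0.0499 SE). Genes of surface proteins held by a GPI anchor fell in 11 of 21 (52.4%), a share like that of the trafficking receptors (50%). The p24 proteins are known to carry this class as proteins, whereas these values are transcripts. Sema7a was at 23.3 and 22.5 CPM with vehicle and 13.1 and 12.3 CPM with AGN192403 (−0.85 ± 0.0917 SE, adjusted p = 1.04e-07), and Cd55 was at −0.44 ± 0.0957 SE.

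Transcription factors of activation fell at rest. Of 33 immediate early and AP-1 genes, 20 fell and 1, the stress-induced Atf3 (0.69 ± 0.142 SE), rose. The number that fell was 13 without vehicle library 1, 13 without vehicle library 2 and 13 without AGN192403 library 2. Fos was at 17.2 and 18.2 CPM with vehicle and 8.56 and 6.36 CPM with AGN192403 (−1.29 ± 0.131 SE, adjusted p = 4.37e-08) and Fosb at 14.5 and 12.6 CPM with vehicle and 6.24 and 4.79 CPM with AGN192403 (−1.32 ± 0.147 SE, adjusted p = 2.07e-07). Egr1, a zinc finger factor induced by the T cell receptor, was at 373 and 372 CPM with vehicle and 223 and 216 CPM with AGN192403 (−0.77 ± 0.0436 SE, adjusted p = 1.05e-12), and Junb fell by 0.84 ± 0.0672 SE. NF-kB subunits and inhibitors fell in 14 of 20, with Bcl3 (−0.73 ± 0.104 SE) and Tnfaip3 (−0.45 ± 0.0607 SE) ahead, but in 8 without vehicle library 1 and 5 without AGN192403 library 2.

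Factors of both ends of T cell differentiation fell together. Naive, memory and stemness genes fell in 14 of 24 (9 without AGN192403 library 2), with Tcf7, encoding TCF1, at 207 and 209.8 CPM with vehicle and 155 and 153 CPM with AGN192403 (−0.44 ± 0.0465 SE, adjusted p = 8.65e-08). Effector and exhaustion transcription factors fell in 16 of 25 (10 without that library), with Prdm1, encoding BLIMP-1, at 36.7 and 36.1 CPM with vehicle and 20.9 and 23 CPM with AGN192403 (−0.71 ± 0.0797 SE, adjusted p = 1.96e-07) and Ikzf2, encoding Helios, at −0.55 ± 0.0935 SE. Glycolysis and glucose uptake fell in 18 of 25 (median −0.24), among them the glucose transporter Slc2a3 (−0.50 ± 0.0415 SE), Hk1 (−0.39 ± 0.0395 SE) and Pkm (−0.33 ± 0.0368 SE).

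Cell cycle genes fell in G2 and M phase in a larger share than any other list with at least 5 members tested. For G2 and M phase, 58 (92.1%) of 63 members were called lower and 0 higher, with a median of −0.51. Cenpf (ENSMUSG00000026605, GRCm38 chr1:189640606-189688086), a kinetochore protein, was at 202 and 189 CPM with vehicle and 101 and 105 CPM with AGN192403 (−0.92 ± 0.0486 SE, adjusted p = 2.69e-13). Plk1, the mitotic kinase, was at 102 and 108 CPM with vehicle and 61.5 and 56.4 CPM with AGN192403 (−0.84 ± 0.0564 SE, adjusted p = 2.69e-11), and Mki67, the proliferation marker Ki-67, at 935 and 879 CPM with vehicle and 553 and 564 CPM with AGN192403 (−0.70 ± 0.0553 SE, adjusted p = 5.3e-10). In S phase 40 of 51 fell and 0 rose, by a smaller median of −0.23, with Rrm2, a subunit of ribonucleotide reductase, at 331 and 341 CPM with vehicle and 248 and 243 CPM with AGN192403 (−0.45 ± 0.0420 SE, adjusted p = 8.4e-09). Tyms, thymidylate synthase, fell by 0.47 ± 0.0604 SE. DESeq2 called 26 of the S phase genes. The letters TTTGAA, the core of the cell cycle genes homology region, were chosen after values had been seen. They were in 17.9% of all windows, 14.4% of tested genes with a window, 5 of 38 S phase promoters and 37 of 56 (66.1%) G2 and M phase promoters. The window of Cenpf (chr1:189688037-189688336, minus strand) shows the motif in capitals.
Cenpf: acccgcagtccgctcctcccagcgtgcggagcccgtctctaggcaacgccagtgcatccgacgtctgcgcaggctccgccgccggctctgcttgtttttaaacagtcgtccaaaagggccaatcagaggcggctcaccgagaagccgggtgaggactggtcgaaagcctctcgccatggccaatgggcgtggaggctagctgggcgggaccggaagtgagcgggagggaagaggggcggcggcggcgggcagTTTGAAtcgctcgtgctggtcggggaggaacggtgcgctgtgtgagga

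Interferon-stimulated genes fell in 23 of 54 and rose in 0 (median −0.13), a count that was 15 without vehicle library 2, 15 without AGN192403 library 1 and 13 without AGN192403 library 2. The antiviral GTPase Mx1 was at 76.6 and 66.9 CPM with vehicle and 57.8 and 54.2 CPM with AGN192403 (−0.36 ± 0.0710 SE, adjusted p = 0.000501). Genes of MHC and antigen presentation gave 9 falls and 1 rise of 22 by small amounts (median −0.07). Vehicle library 1 stood apart in a few long or nuclear transcripts. Kcnq1ot1, a nuclear RNA, was at 33.3 and 11.5 CPM with vehicle and 6.87 and 4.58 CPM with AGN192403 (−1.94 ± 0.576 SE, adjusted p = 0.0141), and without vehicle library 1 it was −1.06 (adjusted p = 0.322). Without AGN192403 library 2 it was −1.62 (0.197). Malat1 was at 2594 and 1540.5 CPM with vehicle and 1099.7 and 1156 CPM with AGN192403 (−0.87 ± 0.241 SE, adjusted p = 0.00871), and −0.45 without that vehicle library (0.272). Its call was also lost without AGN192403 library 1 (0.0776) or 2 (0.0728).

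Among the other lists, oxidative phosphorylation genes encoded in the nucleus rose in 14 of 76 and fell in 1, but 8 rose without vehicle library 1 and 5 without AGN192403 library 2. Cytosolic ribosomal protein genes rose in 13 of 82 (15.9%) and fell in 2 (2.44%), the rises being near the share of all genes tested (11.6%). The number that rose was lower without AGN192403 library 2 and was 32 when only the 4 libraries were fitted. It was 5 without vehicle library 1, 8 without vehicle library 2 and 31 with library totals. Autophagy genes rose in 9 of 27 (33.3%, or 5 genes without AGN192403 library 2) and fell in 0, with the receptor Sqstm1, or p62, at 201 and 205 CPM with vehicle and 296 and 300.1 CPM with AGN192403 (0.56 ± 0.0438 SE, adjusted p = 5.12e-10). Heat shock genes (3 higher and 2 lower of 20), p53 targets (3 and 3 of 31) and BCL2 family genes (3 and 2 of 16) stood near the shares of all genes. NRF2 targets rose in 7 of 29 (24.1%) and fell in 0, with heme oxygenase, Hmox1, at 0.51 ± 0.0994 SE. Genes of polyamine metabolism, which includes the imidazoline receptor ligand agmatine, gave 2 rises (16.7%) and 1 fall (8.33%) of 12, with a median of 0.01. These stood near the shares of all genes (11.6% and 13.7%), although spermidine synthase, Srm, rose by 0.41 ± 0.0629 SE. Among 3 tested genes of imidazoline or adrenergic binding proteins, Nisch, encoding the imidazoline receptor nischarin, was at 275 and 230.3 CPM with vehicle and 204 and 199 CPM with AGN192403 (−0.32 ± 0.0644 SE, adjusted p = 0.000482), and at −0.20 without vehicle library 1 (0.0388).

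The response at rest was set against the response of activated control cells to the same compound, which has its own vehicle libraries. In activated cells 2158 genes (16.4%) were higher and 2412 (18.3%) lower with AGN192403. Of the 1533 genes that rose at rest, 752 were also higher and 112 were lower in activated cells, and of the 1808 that fell, 839 were also lower and 161 were higher. The difference between the responses, activated minus resting, was called for 1135 genes upward (8.62%) and 1457 downward (11.1%). Among the resting rises 549 differed, 466 of them with a more negative response in activated cells, and among the resting falls 775 differed, 476 with a more positive one. These genes were picked by their resting response, which is subtracted in the difference. The pick alone tilts rises toward negative and falls toward positive differences, so no conclusion is drawn from this split.

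Coat genes rose in both states. In activated cells 14 of 17 COPI and 12 of 16 COPII genes were higher. The rise was smaller there for 8 COPI and 6 COPII genes. Copb2 was at 276 and 283 CPM with vehicle and 492 and 502 CPM with AGN192403 in activated cells, a difference of responses of −0.41 ± 0.0592 SE, adjusted p = 1.57e-05. The ATF4 list was higher in 34 of 39, and the responses differed upward in 7 and downward in 12. The synthetases rose more at rest, with 14 of 20 differing downward. Smyd5 showed the same direction, at 168 and 169 CPM with vehicle and 180.2 and 201 CPM with AGN192403 in activated cells (difference −1.28 ± 0.0861 SE, adjusted p = 2.25e-10).

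The states also differed by list. G2 and M phase genes fell more in activated cells, where the median was −1.21 and 56 of 63 responses differed downward. Nucleolar genes, which rose at rest, were lower in 34 and higher in 2 of 52 activated responses, and 38 differed. Interferon-stimulated genes, which fell at rest, were higher in 17 and lower in 11 of 54, with 19 differing upward. Inhibitory receptors differed upward in 11 of 20. Among them Havcr2 was at 209 and 211 CPM with vehicle and 332 and 339.5 CPM with AGN192403 in activated cells (difference 1.02 ± 0.0621 SE, adjusted p = 3.47e-11), whereas the difference for Pdcd1 was 0.45 ± 0.138 SE, adjusted p = 0.0234 and for Ctla4 −0.56 ± 0.0649 SE, adjusted p = 7.99e-07.

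Egr1 reversed between the states. It fell at rest, as given above, and was at 58.7 and 66.9 CPM with vehicle and 115 and 114 CPM with AGN192403 in activated cells (difference 1.63 ± 0.0701 SE, adjusted p = 3.73e-14). Tcf7 did likewise, at 28.8 and 30.6 CPM with vehicle and 38.2 and 44.9 CPM with AGN192403 in activated cells (difference 0.93 ± 0.0871 SE, adjusted p = 4.17e-08). Several of the most negative differences belonged to genes that were not called at rest. S1pr1, which guides lymphocyte exit from lymph nodes, was at 48.1 and 49.2 CPM with vehicle and 44.9 and 43.1 CPM with AGN192403 at rest (−0.15 ± 0.0716 SE, adjusted p = 0.138) and at 23.7 and 24 CPM with vehicle and 6.23 and 5.07 CPM with AGN192403 when activated (difference −1.94 ± 0.147 SE, adjusted p = 2.03e-09). Tnfsf10, encoding TRAIL, was at 32.8 and 29.6 CPM with vehicle and 32.5 and 34.5 CPM with AGN192403 at rest and 43.2 and 49.3 CPM with vehicle and 17.2 and 18.2 CPM with AGN192403 when activated (−1.50 ± 0.123 SE, adjusted p = 7.11e-09). In the other direction Avil, encoding advillin, rose in both states, with a difference of 2.55 ± 0.230 SE, adjusted p = 2.99e-08.

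**Figure D4:**
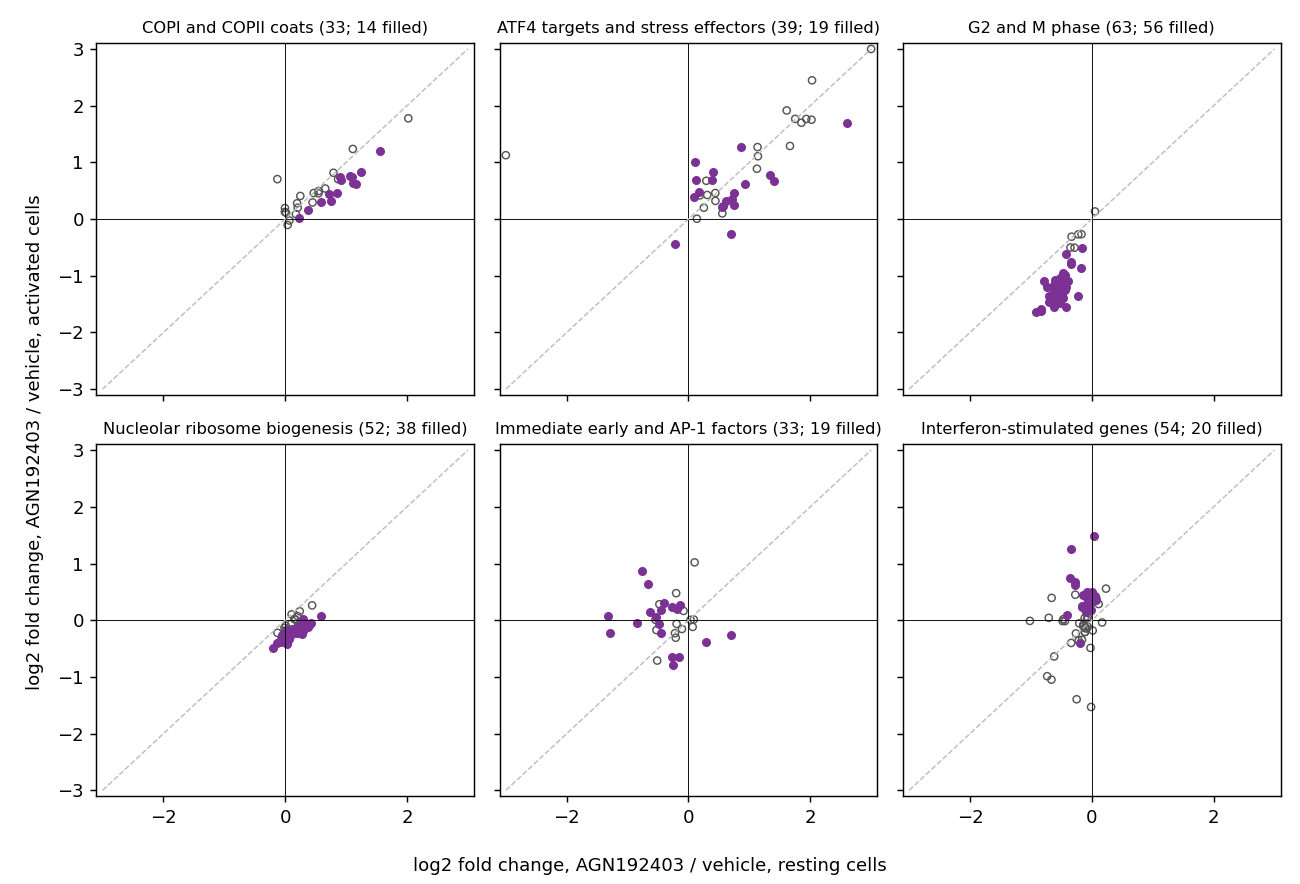
Log2 fold change of AGN192403 over vehicle in resting cells (x axis) and in activated cells (y axis) for the members of 6 lists, values beyond 3 drawn at 3, with equal responses on the dashed line. Filled points are members whose responses differed at an adjusted p below 0.05, among them 56 of 63 G2 and M phase genes, all below the line.

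The compound was also set against Tmed10 knockout in resting cells. Both share the vehicle libraries of resting control cells, so they were compared directly with each other. Against vehicle, the knockout had 370 genes higher (2.81%) and 609 lower (4.63%). AGN192403 gave 1024 genes higher than in the knockout (7.78%) and 1162 lower (8.83%). Tmed10 was at 61.5 and 65.1 CPM in the knockout libraries, below both vehicle (116 and 117 CPM) and AGN192403 (133 and 138 CPM), with AGN192403 over knockout at 1.11 ± 0.0515 SE, adjusted p = 2.34e-13. The knockout libraries thus still held part of the transcript, and its change was opposite in sign to that with the compound. These are transcript levels and do not measure the protein. By western blot, the paper reported successful disruption of Tmed10 by its guide and less TMED protein with AGN192403.

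Secretory genes were higher with AGN192403 than in the knockout. The COPI coat was higher in 12 of 17 and the COPII coat in 11 of 16. The knockout itself had 11 COPI and 5 COPII genes above vehicle. Sec23a was at 63.5 and 58.2 CPM in the knockout, between vehicle and AGN192403 (AGN192403 over knockout 0.92 ± 0.0512 SE, adjusted p = 3.83e-12). Kdelr3 lay at 5.0 and 6.0 CPM, Copb2 at 300.1 and 289.7 CPM, Asns at 109 and 109 CPM and Pck2 at 62.1 and 60.8 CPM, each also between the other groups. The cholesterol list differed in kind, since AGN192403 was above the knockout in 19 of 26 while the knockout had no rise over vehicle. By edgeR the knockout against vehicle had 0 higher and 1 lower (1 and 7 at an unadjusted p below 0.05), with a median of −0.04. Dhcr7 was at 52.6 and 51.2 CPM in the knockout (AGN192403 over knockout 0.72 ± 0.0621 SE, adjusted p = 6.3e-09).

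Cell cycle genes differed as well. G2 and M phase genes were lower with AGN192403 than in the knockout in 60 of 63 and S phase genes in 34 of 51, while the knockout against vehicle had 5 and 0 lower by edgeR (15 and 4 at an unadjusted p below 0.05). Plk1 was at 99.4 and 98.8 CPM in the knockout (−0.76 ± 0.0564 SE, adjusted p = 5.04e-10). Pdcd1 was at 14.3 and 10.4 CPM, and AGN192403 and the knockout did not differ by the test (0.05 ± 0.124 SE, adjusted p = 0.843). Ctla4, at 154 and 145 CPM, was lower with AGN192403 (−0.36 ± 0.0490 SE, adjusted p = 6.76e-06). Egr1, at 115 and 118 CPM, was higher with AGN192403 than in the knockout (0.91 ± 0.0477 SE, adjusted p = 1.18e-12). The most positive differences included Angptl6 (1.66 ± 0.211 SE), encoding a secreted protein, and Pycr1 (1.21 ± 0.129 SE). Among the most negative was Cd7, a surface receptor of T and NK cells, at 34.5 and 36.4 CPM with vehicle and 24.5 and 25.2 CPM with AGN192403 and 53.5 and 53.6 CPM in the knockout (−1.10 ± 0.0763 SE, adjusted p = 1.5e-10).

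**Figure D5:**
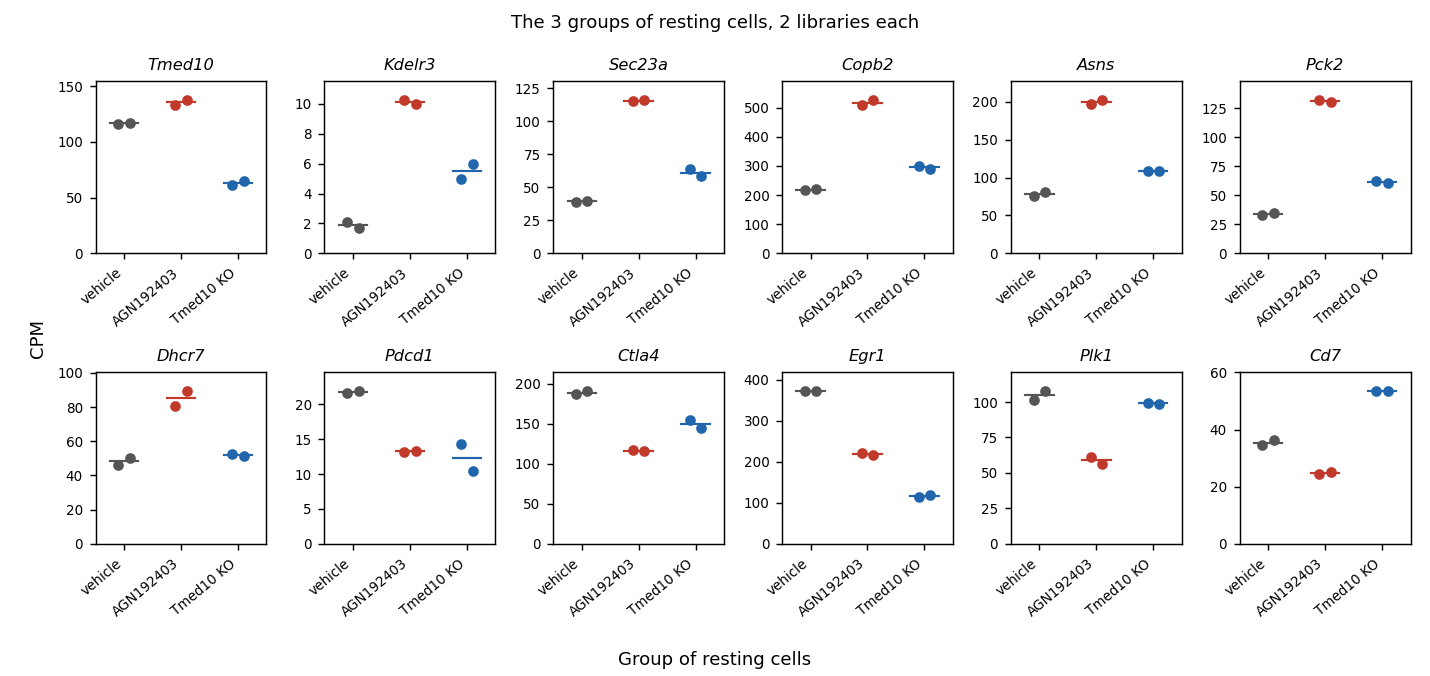
CPM of 12 genes in the 3 groups of resting cells (vehicle grey, AGN192403 red, Tmed10 knockout blue), with each point 1 of 2 libraries, a bar at the mean and each axis starting at 0. The coat and amino acid genes are highest with AGN192403 and intermediate in the knockout, and Tmed10 is lowest in the knockout at 61.5 and 65.1 CPM.

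Some markers of other cells were lower with the compound. The B cell genes Ms4a1 and Pax5 and the myeloid genes Csf1r and C1qa had 0 counts in all 4 libraries. Summed over 11 B cell markers, levels were 138 and 144 CPM with vehicle and 139 and 143 CPM with AGN192403, nearly all of it IgM heavy chain. The 16 myeloid markers summed to 23.8 and 25.6 CPM with vehicle and 19.4 and 20.02 CPM with AGN192403. Of 6 tested myeloid markers, 1, Cd68 (−0.38 ± 0.124 SE, adjusted p = 0.025), fell, and the median was −0.35. The call on Cd68 was lost without vehicle library 2 (−0.23, adjusted p = 0.341) and without AGN192403 library 1 (0.104) or 2 (0.114). The 6 mast cell and basophil markers summed to 82.3 and 78.5 CPM with vehicle and 48.5 and 52.8 CPM with AGN192403, and both tested members fell. Kit, a growth factor receptor that makes up most of that sum, was at 79.8 and 76.6 CPM with vehicle and 47.7 and 51.3 CPM with AGN192403 (−0.65 ± 0.0591 SE, adjusted p = 6.52e-09), and Mcpt8, a basophil protease, had 38 counts with vehicle and 10 with AGN192403 (−1.92 ± 0.537 SE, adjusted p = 0.00949). The call on Mcpt8 was lost without vehicle library 1 (adjusted p = 0.0548) and without AGN192403 library 1 (0.0956), and its log2 value was −2.89 without AGN192403 library 2. Cpa3, a mast cell protease that was too low to be tested, had 13 counts with vehicle and 20 with AGN192403, and Mcpt4 and Fcer1a had 0 in both groups. Pecam1, the 1 stromal marker tested, fell (−0.23 ± 0.0514 SE, adjusted p = 0.00159). Of 4 tested CD4 T cell markers, 1, Gata3 (−0.33 ± 0.0842 SE, adjusted p = 0.00511), fell and 0 rose, with a list median of −0.005. The call on Gata3 was lost without AGN192403 library 2. The 7 NK cell markers summed to 10.9 and 12.1 CPM with vehicle and 12.5 and 10.9 CPM with AGN192403. The 10 CD8 T cell markers summed to 13346 and 13776 CPM with vehicle and 12106 and 12279 CPM with AGN192403, a difference that lies mostly in Gzmb. Of these 10, 4 (40%) were called lower, beside 13.7% of all genes tested, and 0 higher. Cd3e was among the 4 (−0.16, adjusted p = 0.00853), as was Gzmb. The part of these markers in the results was not tested.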

How the data were processed

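Polyadenylated RNA of OT-I/Cas9 CD8 T cells was sequenced in 12 libraries, 2 for each of 6 groups, which were taken from the labels. The deposited values are whole read counts per gene that the authors made with STAR 2.6.0c and HTSeq on GRCm38 (mm10), per the submitters' notes. Of the gene identifiers, 512 had no symbol and held 0.0709% of counts. Reads were not aligned again.

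Counts were fitted with edgeR 4.0.16 (limma 3.58.1, R 4.3.3). The filter was filterByExpr with its group argument set to the 6 groups, and TMM factors ran from 0.976 to 1.02. The quasi-likelihood model held a mean for each group and used every library, which left 6 residual degrees of freedom. Contrasts were AGN192403 against vehicle at rest, its difference from the activated response, and AGN192403 against Tmed10 knockout at rest. On counts simulated with known changes and the fit's own spread, the fit recovered most of the changes that were set. Because the spread was its own, this checked the working of the fit and cannot speak to spread between cultures or mice. DESeq2 1.42.0, other scalings and filters, a replicate block, subsets of libraries and leaving out each library were alternatives.

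The comparison, its 57 gene lists and the rule for naming genes were chosen with earlier results of these data known, and 8 lists and 3 motifs were added after values had been seen. The rule named the fixed TMED and receptor genes, the 20 highest folds in each direction with at least 10 CPM, the 10 greatest CPM differences, up to 6 called members per list and 8 extremes of the other contrasts. Other genes named were chosen after their values were seen. Some genes that the rule names are not reported here. Lists are described by counts and medians, with no set test. Counts of near-identical genes are uncertain. The median SE of a log2 fold change was 0.0886.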

Additional observations from a re-analysis of the deposited data

Results flagged for a closer look

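The response to AGN192403 differed between activated and resting control cells in 2592 genes by edgeR's test of the difference itself. Among the genes named above with the most extreme differences, activated minus resting on the log2 scale, Avil was at 2.55, Egr1 at 1.63, S1pr1 at −1.94, Smyd5 at −1.28 and Tnfsf10 at −1.50. Groups of 2 libraries are too small for a test of single outlying samples.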

How the results depend on the processing

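For AGN192403 against vehicle at rest, the 3341 called genes (1533 higher and 1808 lower) became 1935 (774 and 1161) with DESeq2, and 1861 to 2577 (872 to 1156 and 989 to 1503) when 1 library was left out, lowest without AGN192403 library 2. Library totals without TMM gave 3417 (1991 and 1426). For the difference between activated and resting responses, 2592 (1135 and 1457) became 1491 (684 and 807) with DESeq2 and 1782 to 2842 (904 to 1239 and 878 to 1603) with 1 library left out, the 878 without resting AGN192403 library 2. For AGN192403 against the knockout, 2186 (1024 and 1162) became 1297 (442 and 855) with DESeq2, 2306 (795 and 1511) with median-ratio size factors, and 1215 to 1626 (426 to 549 and 789 to 1077) with 1 library left out, by more than 1.5 times in at least 1 count for each of the 4 libraries. A fit with replicate number as a block gave 3661, 2918 and 2502 genes called. The correlation of replicate deviations was 0.0157 between the resting vehicle and AGN192403 groups, 0.189 and 0.239 between resting vehicle and the activated vehicle and AGN192403 groups, 0.213 between those activated groups, and under 0.1 for every other pair of groups. The labels do not tie the numbers to a shared source and not every correlation passed 0.1, so the numbers were not taken as pairs. The cause of these shifts was not tested. Without 1 library, a lone library was assumed to vary like the other groups.

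DESeq2 also lowered the calls of some lists, giving 14 interferon-stimulated, 9 NF-kB, 15 nucleolar, 6 oxidative phosphorylation, 5 autophagy, 4 NRF2, 5 tether and 5 ribosomal protein genes, and without an expression filter 5 MHC genes fell. Of 136 named genes, 130 were called and 121 kept their call under all of the alternatives that tested them. The exceptions were Cd3e, Cd68, Gata3, Kcnq1ot1, Malat1, Mcpt8, Tmed5, Tmed7 and Unc93b1, of which DESeq2 did not call Cd68, Gata3, Kcnq1ot1, Malat1 and Tmed5 and gave Mcpt8 no adjusted p. The other losses came with 1 library left out.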
